A study of Mus musculus with 8 samples.

Results

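The 10 genes described here regulate how many mitochondria a cell makes and how these fuse and divide. They are the rows of the deposited count table named Ppargc1a, Ppargc1b, Tfam, Nrf1, Esrra, Mfn1, Mfn2, Opa1, Dnm1l and Fis1, all 10 of which were found among 34299 genes and passed the filter on low counts in both comparisons. The study measured polyadenylated RNA of whole mouse brain by bulk RNA sequencing, in wild-type (WT) and Cav1 knockout (KO) animals. Cav1 encodes caveolin 1, the coat protein of the membrane pits called caveolae. The 8 libraries were 3 of WT fetuses at day 15 of gestation, 3 of Cav1 KO fetuses at the same age and 2 of aged Cav1 KO mice at week 70. Both KO groups are labelled as Cav1 knockouts. Aged WT brain was not analysed here, so age was compared within the knockout only. The labels give the fetal samples as biological replicates, and say nothing of strain, sex, litter, pooling or the design of the knockout allele.

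In the cell, PGC-1 coactivators (Ppargc1a and Ppargc1b) dock on transcription factors such as nuclear respiratory factor 1 (Nrf1) and estrogen-related receptor alpha (Esrra), which bind the promoters of nuclear genes for mitochondrial proteins. One of their targets, Tfam, packages mitochondrial DNA and is needed for its transcription. The mitofusins Mfn1 and Mfn2 join outer membranes and Opa1 joins inner membranes, while the dynamin-related GTPase Dnm1l, recruited by outer-membrane adaptors that include Fis1, cuts mitochondria. In neurons this balance shapes the mitochondria that are carried into axons and dendrites.

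At day 15 the fission genes Dnm1l and Fis1 and the genes Tfam and Mfn1 were higher in KO than in WT brain, and Mfn2, Opa1 and Nrf1 were lower. Mfn2 fell to 0.506 of its WT level. The direction of Dnm1l turned when transcript length and GC content were adjusted for, as given with its values. From KO day 15 to KO week 70, Mfn2, Ppargc1b, Ppargc1a, Esrra, Opa1 and Fis1 rose and Nrf1, Tfam and Mfn1 fell, the last 2 by small amounts that lost the call under some alternatives. So Mfn2 and Opa1 were lowest in fetal KO brain and highest in aged KO brain. Fis1, Tfam and Dnm1l lay above WT in every KO library, before any adjustment for length and GC content. Of these, Fis1 alone rose further with age before that adjustment, and with it Dnm1l rose too.

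Totals ran from 19414747 to 20833397 counts in the WT libraries, from 14110031 to 15245283 in the fetal KO libraries and were 20203233 and 18924304 at week 70, so depth separated the fetal genotypes. Cav1 had 367, 218 and 329 counts in the WT libraries and at most 5 in any KO library. Mitochondrially encoded mRNA made up 1.21 to 1.29% of counts in WT, 3.05 to 3.63% in fetal KO and 3.54 to 4.41% in aged KO brain. The 6 fetal libraries all held at least 54531 counts of Xist, the RNA that silences an X chromosome in females, and at most 4 counts of 4 Y-linked genes. The week 70 libraries differed in this, with 7969 Xist and 0 Y-linked counts in replicate 1 and 4 Xist and 2219 Y-linked counts in replicate 2. Replicate 1 had the female pattern, as had the fetal libraries, and replicate 2 the male one. The comparison by age therefore also mixes sex. Among marker genes, WT replicate 1 stood apart with 49885 counts of the collagen gene Col1a1, against 1408 and 2623 in the other WT libraries. No batch is labelled, and a batch that followed the groups could not be told apart from genotype or age.

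Promoter sequences are shown for the 5 genes whose 250 bases before the RefSeq start held a match to a binding motif of a biogenesis factor, because 3 of them belong to the genes that were higher at day 15. They were read from RefSeq on GRCm38.p6, run 5′ to 3′ on the gene's strand, and carry the match in capitals. The Tfam stretch lies before the RefSeq start but inside an exon of the GENCODE annotation, whose Tfam start is farther upstream, and is cut to 29 bases for that reason. The first 2 matches are to the NRF1 motif and the other 3 to the ETS motif bound by GABP, also called NRF-2.
Opa1, chr16:29579234-29579333, plus strand: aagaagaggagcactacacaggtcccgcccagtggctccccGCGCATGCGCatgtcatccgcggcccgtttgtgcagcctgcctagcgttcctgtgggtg
Esrra, chr19:6921814-6921908, minus strand: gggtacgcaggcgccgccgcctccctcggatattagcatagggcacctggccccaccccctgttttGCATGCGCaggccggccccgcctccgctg
Tfam, chr10:71238074-71238102, minus strand: cctgccgcggaCCGGAAGtccgggcttcc
Mfn1, chr3:32529382-32529464, plus strand: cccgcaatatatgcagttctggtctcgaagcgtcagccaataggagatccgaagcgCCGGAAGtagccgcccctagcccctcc
Fis1, chr5:136953175-136953274, plus strand: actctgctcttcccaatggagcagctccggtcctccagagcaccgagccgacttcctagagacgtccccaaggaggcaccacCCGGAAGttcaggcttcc

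A promoter was available for 9 of the 10 genes, with 3 for Mfn2 and 2 each for Nrf1, Dnm1l and Fis1. A gene was counted if any of its promoters matched, so counts of genes are not comparable with the shares of promoters below. Both strands of the same 250-base window were searched in 32851 promoters. The palindromic NRF1 motif, whose 10 letters are the capitals in the Opa1 line, was present in 0.782% of them and, among the 9 genes, in Opa1. Its shorter form GCATGCGC, which overlaps the palindrome, was present in 2.26% of promoters and in Opa1 and Esrra. The ETS motif CCGGAAG was present in 6.91% of promoters and in Tfam, Mfn1 and Fis1. The fourth gene that was higher at day 15, Dnm1l, had no such letters in its 2 windows. The ERR motif TCAAGGTCA (0.387% of promoters), the CRE motif TGACGTCA (1.55%) and the YY1 motif AAGATGGCG (0.606%) matched in none of the 9. A match describes the sequence and does not show that a factor binds there. Whether the matches bear on the day 15 changes was not tested. The set of genes higher at day 15 itself changed when length and GC content were adjusted for.

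Levels below are counts normalised to library size (CPM), scaled over all 8 libraries by the trimmed mean of M-values, and ± gives the SD. Fold changes are log2 values with SE from edgeR's quasi-likelihood test on the libraries of each comparison, with Benjamini-Hochberg adjusted p over all genes tested and a threshold of 0.05. Because each fit has its own scaling, a log2 ratio of the plotted levels lies -0.09 from the fitted one at day 15 and 0.10 from it for age. At day 15, 7 of the 10 genes passed the test, 4 higher and 3 lower, in a comparison where 62.6% of all 19147 tested genes passed, 30.1% higher and 32.5% lower. From day 15 to week 70 in the knockout, 9 of 10 passed, 6 higher and 3 lower, where 82% of 20000 tested genes passed, 37.6% higher and 44.4% lower. The share of the 10 genes that passed lies near these shares. CPM ranges of the groups did not overlap for 7 of 10 genes at day 15, against 68.5% of tested genes, and for 9 of 10 with age, against 87.7%. Both comparisons use the same 3 fetal KO libraries.

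**Figure D1:**
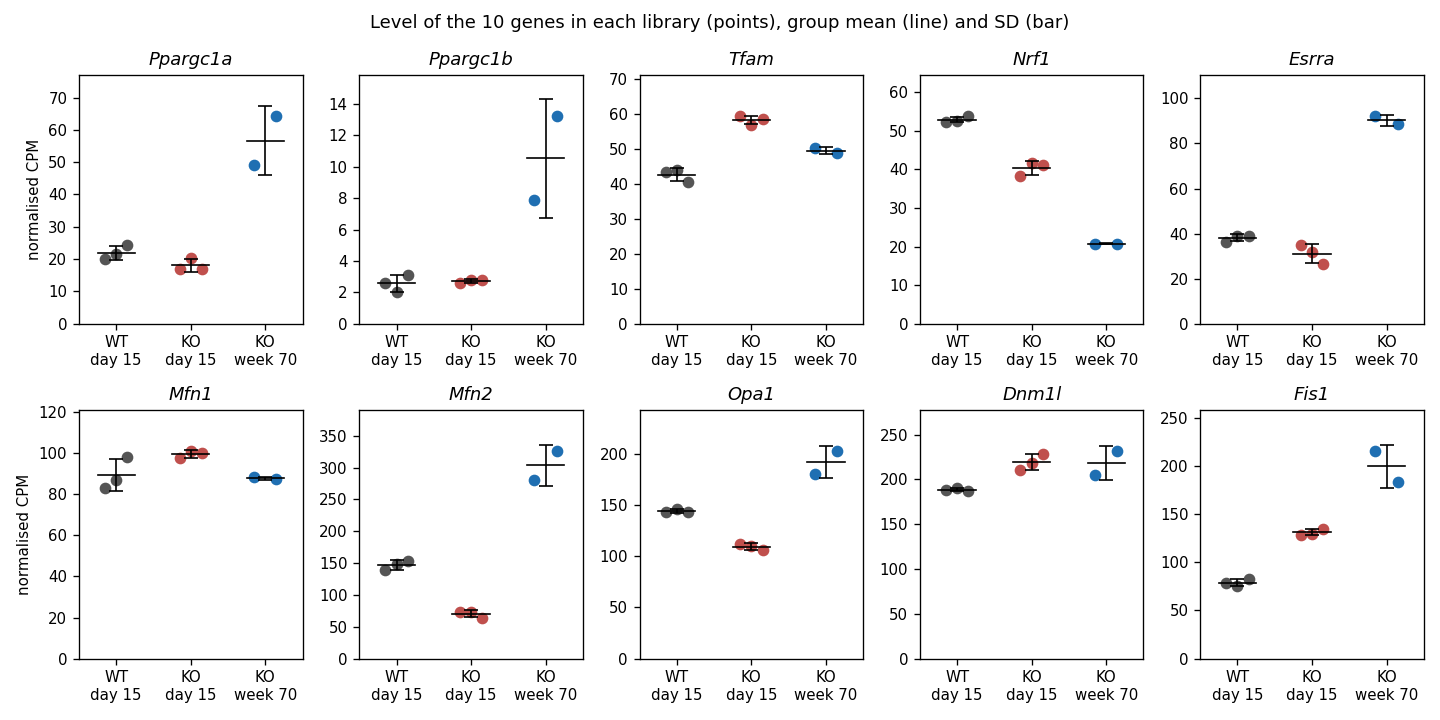
Normalised CPM (y axis, starting at 0) of each of the 10 genes in the 8 libraries, by group (x axis: WT day 15, KO day 15, KO week 70). Points are libraries, lines group means and bars SD (n = 3, 3 and 2), and Mfn2 shows the lowest points in fetal KO brain, between 63.7 and 73.7, and the highest at week 70, 281 and 326.

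Of the coactivators, Ppargc1a (chr5:51454250-51567726, minus strand, GENCODE M21 on GRCm38, as for the positions that follow) measured 20.1, 21.5 and 24.4 CPM in the WT libraries, 16.9, 20.3 and 17.0 in fetal KO and 49.1 and 64.2 in aged KO brain. The fetal ranges overlapped by a narrow margin and both aged libraries lay far above them. Ppargc1a did not pass the test between the fetal genotypes (log2 fold change -0.19, SE 0.110, edgeR adjusted p 0.149), and rose with age by 1.55 (SE 0.132, edgeR adjusted p 1.34e-06), or 2.10 with offsets for transcript length and GC content, which are described further on. Its paralog Ppargc1b was the scarcest of the 10 in fetal brain, with 40 to 61 counts in each fetal library. It measured 2.58 ± 0.548 CPM in WT (n = 3), 2.73 ± 0.134 in fetal KO (n = 3) and 10.5 ± 3.79 in aged KO brain (n = 2). The WT range of Ppargc1b, 2.04 to 3.14 CPM, enclosed the fetal KO range, and the aged libraries stood apart at 7.87 and 13.2. Its fetal log2 fold change was 0.17 (SE 0.219, edgeR adjusted p 0.525), and with age it rose by 1.85 (SE 0.257, edgeR adjusted p 6.62e-05). With the offsets these values were 0.87 (edgeR adjusted p 0.00694), past the threshold, and 0.93 (edgeR adjusted p 0.00658).

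Of the transcription factors, Nrf1 (chr6:30047988-30153458, plus strand) measured 52.3, 52.6 and 53.7 CPM in WT, 38.2, 41.7 and 41.2 in fetal KO and 20.6 and 20.8 in aged KO brain. The 3 groups formed 3 separate steps, and Nrf1 was the only one of the 10 with the order WT, fetal KO, aged KO from high to low without overlap. It fell at day 15 (log2 fold change -0.30, SE 0.0641, edgeR adjusted p 0.00203) and again with age (-1.06, SE 0.104, edgeR adjusted p 3.95e-06). The day 15 call of Nrf1 was lost with upper-quartile scaling (-0.13, edgeR adjusted p 0.1).

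Esrra (chr19:6910977-6921813, minus strand) measured 36.3, 38.8 and 39.1 CPM in WT and 34.8, 32.0 and 26.4 in fetal KO brain, then 92.1 and 88.5 at week 70. Both aged libraries lay far above every fetal one, while the fetal groups lay close together. The fetal ranges did not overlap on the 8-library scale but did when the 6 fetal libraries were scaled alone. Esrra missed the threshold at day 15 (log2 fold change -0.21, SE 0.0954, edgeR adjusted p 0.08). Leaving out fetal KO replicate 1 (-0.31, edgeR adjusted p 0.0248) or WT replicate 1 (-0.26, edgeR adjusted p 0.0493) brought it past the threshold. With age it rose by 1.44 (SE 0.110, edgeR adjusted p 5.37e-07). Its exons share 73 bases with Trmt112 on the opposite strand (1.66% of its exon length) and 91 bases with the microRNA gene Mir6990 on the same strand (2.07%).

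Tfam (chr10:71225464-71238280, minus strand) measured 43.3, 44.1 and 40.6 CPM in WT, 59.4, 56.9 and 58.7 in fetal KO and 50.3 and 48.9 in aged KO brain. Fetal KO was the highest group and WT the lowest, with no overlap between neighbours, so the order of Tfam was unlike that of either coactivator. It rose at day 15 by 0.54 (SE 0.0619, edgeR adjusted p 2.57e-05). With age it fell by 0.33 (SE 0.0852, edgeR adjusted p 0.00423), a call that was lost once length and GC content were adjusted for (-0.10, edgeR adjusted p 0.269).

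Among the fusion genes, Mfn2 (chr4:147873599-147904704, minus strand) had the largest absolute log2 fold change of the 10 in each comparison as tested. This order did not hold under every alternative: with upper-quartile scaling at day 15 Fis1 was at 0.99 and Mfn2 at -0.81, and without week 70 replicate 1 Ppargc1b was at 2.18 and Mfn2 at 2.12. Nor did it hold with the offsets. Its levels were 139, 149 and 153 CPM in WT, 73.7, 72.8 and 63.7 in fetal KO and 281 and 326 in aged KO brain. No library of one group came near another group. Mfn2 fell at day 15 (log2 fold change -0.98, SE 0.0691, edgeR adjusted p 6.91e-07) and rose by 2.02 from fetal to aged KO brain (SE 0.0966, edgeR adjusted p 1.35e-08). Both calls held with length and GC offsets, at -0.44 (edgeR adjusted p 0.000254) and 1.40 (edgeR adjusted p 7.4e-08).

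Its paralog Mfn1 (chr3:32529465-32579239, plus strand) measured 83.2, 86.9 and 98.4 CPM in WT, 97.7, 101 and 100.2 in fetal KO and 88.3 and 87.3 in aged KO brain. Neighbouring groups overlapped on this scale, through WT replicate 3. When the fetal libraries were scaled alone the 2 ranges did not overlap. Mfn1 rose at day 15 by 0.24 (SE 0.0695, edgeR adjusted p 0.0108), a call that was lost without WT replicate 1 (0.17, edgeR adjusted p 0.0587). With age it fell by 0.28 (SE 0.0816, edgeR adjusted p 0.00867), a call that was lost when all 8 libraries were fitted together (-0.18, edgeR adjusted p 0.0538).

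Opa1 (chr16:29579334-29654884, plus strand) measured 143, 146 and 144 CPM in WT, 112, 109.9 and 107 in fetal KO and 181 and 203 in aged KO brain. The order of its groups was that of Mfn2, aged KO, WT, fetal KO, with no overlap. Opa1 fell at day 15 (log2 fold change -0.31, SE 0.0521, edgeR adjusted p 0.00043) and rose by 0.71 with age (SE 0.0839, edgeR adjusted p 1.82e-05). With length and GC offsets the values were -0.21 (edgeR adjusted p 0.00898) and 1.03 (edgeR adjusted p 7.89e-07).

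Of the fission genes, Fis1 (chr5:136953275-136966234, plus strand) measured 78.8, 75.3 and 83.2 CPM in WT, 129, 130.0 and 135 in fetal KO and 216 and 184 in aged KO brain. The groups rose in that order without overlap. Fis1 rose at day 15 by 0.82 (SE 0.0584, edgeR adjusted p 7.57e-07) and with age by 0.51 (SE 0.0949, edgeR adjusted p 0.000544). With length and GC offsets the values were 0.66 (edgeR adjusted p 6.67e-06) and 1.09 (edgeR adjusted p 3.1e-06).

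Dnm1l (chr16:16312230-16358959, minus strand) measured 188, 191 and 187 CPM in WT, 211, 219 and 229 in fetal KO and 205 and 232 in aged KO brain. Both KO groups lay above WT and overlapped each other. At day 15 Dnm1l rose by 0.31 (SE 0.0599, edgeR adjusted p 0.0011), and it did not pass with age (-0.11, SE 0.0909, edgeR adjusted p 0.294). With upper-quartile scaling Dnm1l passed as lower with age (-0.36, edgeR adjusted p 0.00379). Its direction turned in both comparisons with length and GC offsets, to -0.10 at day 15 (edgeR adjusted p 0.112) and 0.61 with age (edgeR adjusted p 2.37e-05). Its annotated pseudogene Gm13719, 91.2% identical, had 1 to 7 counts per library.

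**Figure D2:**
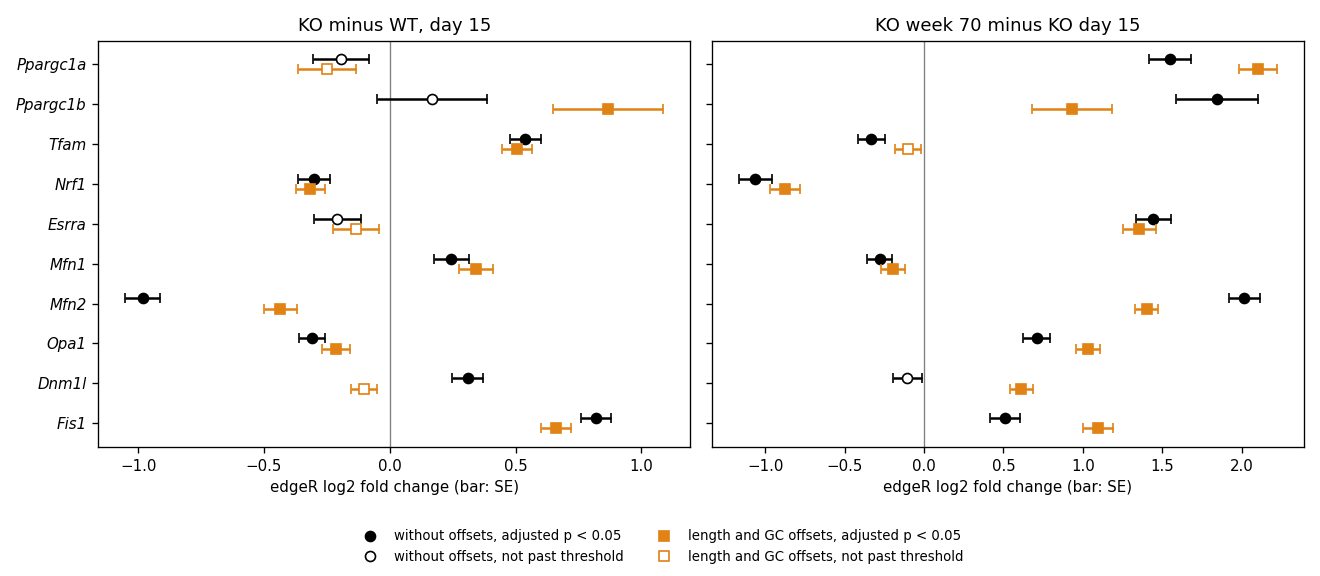
Log2 fold changes of the 10 genes in the 2 comparisons, as fitted and with length and GC offsets, where bars give the SE. Mfn2 reads -0.98 at day 15 and 2.02 with age, and Dnm1l is the gene whose sign turned with the offsets in both.

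Across all genes, the day 15 fold change followed transcript length (Spearman rho -0.37) and GC content (rho -0.48), over 19050 genes that are not independent replicates. Long and GC-rich transcripts were lower in fetal KO libraries. Among the 10 genes, GC content of the longest transcript ran from 40.9% in Dnm1l to 57.8% in Ppargc1b, and Fis1 was the shortest at 948 bases. Offsets that smooth each library on both properties brought the 2 rho values to -0.02 and -0.00. For age rho was 0.20 with length and 0.28 with GC content, and 0.06 and 0.04 with offsets. The offsets remove any difference that follows length or GC content, whatever its source. With them, 7 of 10 genes passed at day 15, 4 higher and 3 lower, against 51.1% of genes, 26% higher and 25.1% lower. For age 9 of 10 passed, 7 higher and 2 lower, against 78.7% of genes, 39.6% higher and 39.2% lower. The 4 higher genes were then Tfam, Mfn1, Fis1 and Ppargc1b, the last at 0.87 (edgeR adjusted p 0.00694), in place of Dnm1l.

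**Figure D3:**
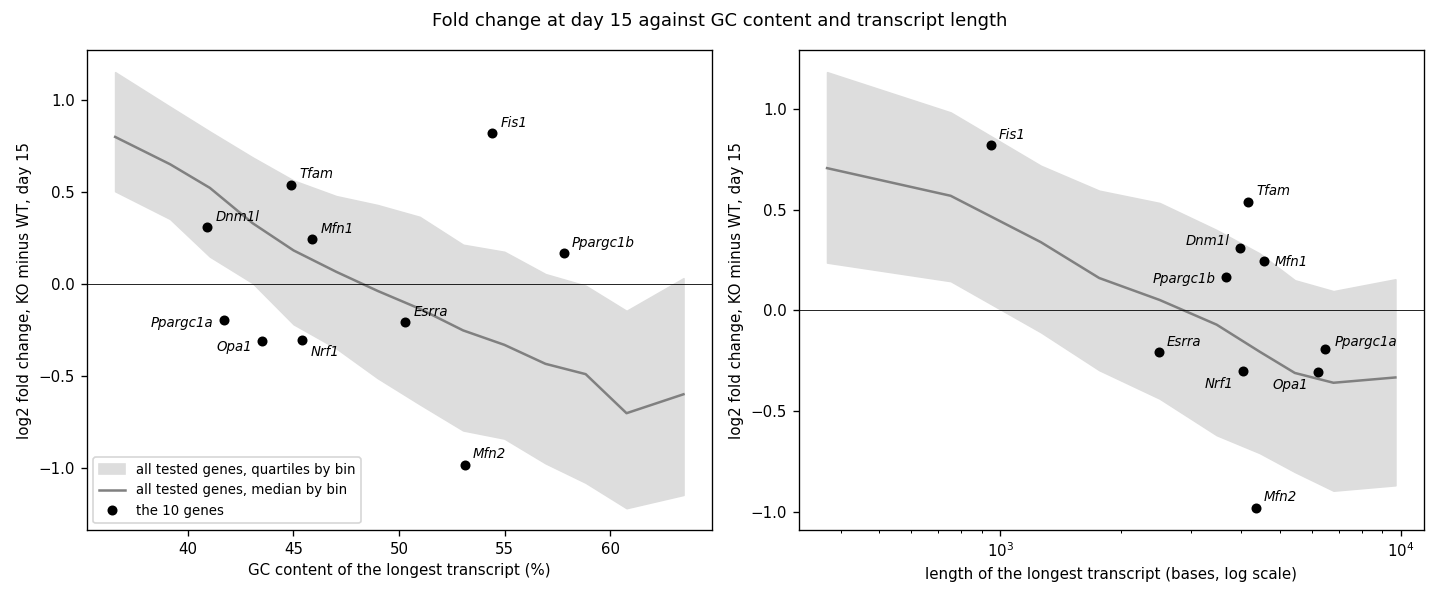
Log2 fold change at day 15 (y axis) of the 10 genes against GC content of the longest transcript in percent (left) and its length in bases on a log axis (right). The grey line and band give the median and quartiles of all tested genes by bin, and For GC content Fis1 and Ppargc1b lie above the band, and Mfn2, Opa1, Ppargc1a and Nrf1 lie below it.

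Per kilobase of exon (RPKM), Fis1 was the most abundant of the 10 in all 3 groups, at 46.1 ± 2.31 in WT (n = 3), 76.6 ± 1.87 in fetal KO (n = 3) and 117 ± 13.1 in aged KO brain (n = 2). Dnm1l came second in both fetal groups. Mfn2 came after these 2 in WT at 28.3 ± 1.46 RPKM. In fetal KO brain Mfn2, at 13.5 ± 1.07, overlapped Opa1 and Tfam and lay below Mfn1, and at week 70, at 58.4 ± 6.10, it was exceeded by Fis1 alone. The lowest level in both fetal groups was that of Ppargc1b. At week 70 Nrf1 had the lowest mean, 2.01 RPKM, and overlapped Ppargc1b. The order of neighbouring genes depends on the length used. Per kilobase of the longest transcript, Ppargc1b (2.15 and 3.62) lay below Nrf1 (5.10 and 5.14) at week 70. On that scale fetal KO Mfn2 (14.7 to 17.0) lay between Tfam (13.7 to 14.3) and Opa1 (17.1 to 18.0) without overlap. The summed fusion genes Mfn1, Mfn2 and Opa1 averaged 61.3, 43.7 and 97.1 RPKM in WT, fetal KO and aged KO brain. The summed fission genes Dnm1l and Fis1 averaged 82.4, 119 and 159 RPKM.

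Ratios within a library do not depend on the scaling between libraries. Mfn2 over Mfn1, as RPKM, was 1.96, 2.02 and 1.84 in WT, 0.888, 0.847 and 0.748 in fetal KO and 3.75 and 4.39 in aged KO brain. By these unadjusted RPKM, Mfn2 was the more abundant mitofusin in WT and aged KO brain and the less abundant in fetal KO brain. Length and GC offsets shrank the day 15 difference between the mitofusins, as given below. Whether their order still changes with offsets was not tested. Opa1 over Dnm1l was 0.503, 0.507 and 0.508 in WT, 0.352, 0.332 and 0.307 in fetal KO and 0.583 and 0.579 in aged KO brain. Dnm1l over Fis1 was 0.785, 0.834 and 0.741 in WT, 0.539, 0.554 and 0.559 in fetal KO and 0.313 and 0.415 in aged KO brain. Fetal KO libraries lay below WT in both, and aged libraries lay above WT in Opa1 over Dnm1l and below fetal KO in Dnm1l over Fis1. Ppargc1a over Ppargc1b was 4.72, 6.37 and 4.70 in WT, 3.98, 4.36 and 3.68 in fetal KO and 3.78 and 2.94 in aged KO brain.

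The fetal ranges of all 4 ratios were separate. A two-sided exact permutation test of the log ratios gave p = 0.1 for each at day 15, the smallest value that 3 against 3 libraries allow, and 0.2 adjusted over 8 comparisons. For age the two-sided exact permutation p was 0.2 for 3 ratios and 0.4 for Ppargc1a over Ppargc1b, adjusted to 0.2286 and 0.4. With length and GC offsets the day 15 difference in log2 fold change between Opa1 and Dnm1l shrank from -0.62 to -0.11, and that between Mfn2 and Mfn1 went from -1.23 to -0.78. The difference between Ppargc1a and Ppargc1b went from -0.36 to -1.12 at day 15 and from -0.30 to 1.17 for age, which turned its sign.

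**Figure D4:**
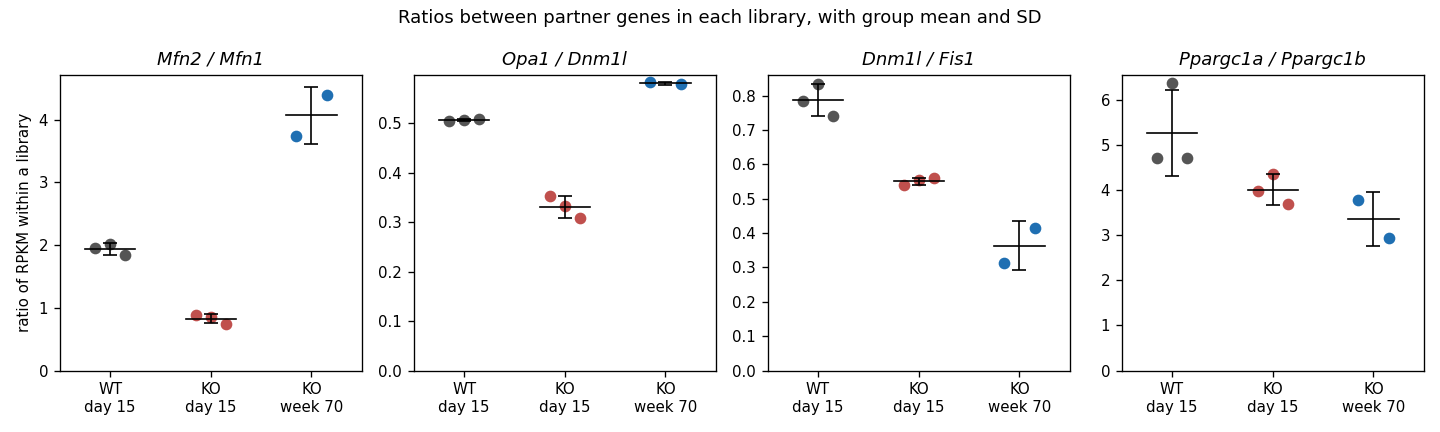
Ratio of RPKM between partner genes within each library (y axis, starting at 0), by group, with group mean and SD. Mfn2 over Mfn1 lies above 1 in WT and aged KO brain and below 1 in the 3 fetal KO libraries, at 0.888, 0.847 and 0.748. The ratios are without length and GC offsets.

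Other genes of the same pathways were grouped in lists, to be read against the 30.1% of all tested genes that were higher and the 32.5% that were lower at day 15. With offsets these shares were 26% and 25.1%. At that age 14 of 29 tested biogenesis transcription regulators were lower and 3 higher, with a median log2 fold change of -0.27 against 0.03 over all tested genes. The 2 largest falls without offsets were those of Hcfc1, a transcriptional co-regulator (-1.77, edgeR adjusted p 1.59e-08, and -0.85 with offsets), and Esrrb, a receptor related to Esrra (-1.76, edgeR adjusted p 3.28e-06, and -1.13 with offsets). Prkag2, a regulatory subunit of the energy sensor AMPK, rose by 0.46 (edgeR adjusted p 1.82e-05), and the mitochondrial deacetylase Sirt3 by 0.43 (edgeR adjusted p 0.00579). With length and GC offsets the counts of this list were 7 higher and 11 lower, with a median of -0.02.

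Of 24 genes for mitochondrial DNA expression and maintenance, 12 were higher and 7 lower at day 15 (median 0.34), and 8 higher and 3 lower with offsets (median 0.19). Slirp, which stabilises mitochondrial mRNA, rose by 1.76 (edgeR adjusted p 1.55e-06, and 1.35 with offsets), and the regulator of mitochondrial transcription and ribosome assembly Mterf3 by 1.05 (edgeR adjusted p 1.3e-05, and 0.47 with offsets). The matrix protease Lonp1 (-0.81, edgeR adjusted p 5.83e-06) and the mitochondrial RNA polymerase Polrmt (-0.80, edgeR adjusted p 0.000121) fell, and both calls were lost with length and GC offsets, at -0.08 (edgeR adjusted p 0.302) and 0.12 (edgeR adjusted p 0.257). 

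Among 19 fission adaptors and regulators, 6 were higher and 9 lower at day 15 (median 0.12). With offsets 6 were higher and 4 lower (median 0.05), where 26% of all tested genes were higher and 25.1% lower. Gdap1, an outer-membrane fission factor, rose by 0.88 (edgeR adjusted p 6.83e-07, and 0.48 with offsets) and Fundc1, an outer-membrane mitophagy receptor, by 0.90 (edgeR adjusted p 6.6e-06), of which the second was lost with offsets (-0.02, edgeR adjusted p 0.84). Akap1, which anchors protein kinase A at the outer membrane, fell (-1.00, edgeR adjusted p 5.15e-07, and -0.52 with offsets), as did the actin-assembling formin Inf2 (-1.02, edgeR adjusted p 3.37e-05), the latter not with offsets (-0.14, edgeR adjusted p 0.336). Of 23 fusion and cristae regulators, 11 were higher and 5 lower (median 0.16), and 10 higher and 1 lower with offsets (median 0.23). Micos13, a subunit of the complex that shapes cristae junctions, rose by 1.19 (edgeR adjusted p 6.11e-07, and 0.88 with offsets). Afg3l1 fell (-0.72, edgeR adjusted p 1.64e-05), a call that was lost with offsets (-0.17, edgeR adjusted p 0.0841). Samm50, which inserts proteins into the outer membrane, fell (-0.32, edgeR adjusted p 0.0026) and turned with offsets (0.23, edgeR adjusted p 0.0117).

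Of 19 tested genes for mitophagy and mitochondrial transport, 7 were higher and 11 lower at day 15 (median -0.28), and 4 higher and 4 lower with offsets (median -0.00). The autophagy receptor Sqstm1 (-1.14, edgeR adjusted p 1.09e-06, and -0.81 with offsets) and the kinesin Kif5c (-1.04, edgeR adjusted p 1.15e-06, and -0.59 with offsets) fell. Of 23 nuclear genes used as markers of mitochondrial mass, 7 were higher and 9 lower (median -0.06), and 7 higher and 12 lower with offsets (median -0.22). Citrate synthase, Cs, fell (-1.05, edgeR adjusted p 1.14e-07), as did Sdha of complex II (-0.90, edgeR adjusted p 1.41e-06), while the chaperonin Hspe1 rose by 1.15 (edgeR adjusted p 9.29e-05, and 0.42 with offsets). All 13 mitochondrially encoded mRNAs were higher in fetal KO brain (median 1.12), and with offsets 2 were higher and 9 lower (median -0.22). All but mt-Nd1 and mt-Atp8 have annotated pseudogenes with which reads could be shared, so their values are uncertain.

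From day 15 to week 70 in the knockout, where 37.6% of all tested genes were higher and 44.4% lower, 17 of 19 tested mitophagy and transport genes were higher and 1 lower, with a median of 1.58 against -0.19 over all tested genes (18 higher and 0 lower with offsets). The axonal kinesin Kif5a rose by 5.31 (edgeR adjusted p 3.7e-10, and 4.62 with offsets) and Snph, which docks mitochondria on axonal microtubules, by 4.32 (edgeR adjusted p 2.71e-10, and 3.26 with offsets). Of the 23 mass markers, 20 were higher and 1 lower (median 1.37), and 21 higher and 2 lower with offsets. Of 19 fission adaptors and regulators, 9 were higher and 4 lower (median 0.18), led by Mtfp1 of the inner membrane (4.70, edgeR adjusted p 2.02e-10). Of 23 fusion and cristae regulators, 13 were higher and 5 lower (median 0.30), led by Chchd10 of the intermembrane space (4.24, edgeR adjusted p 2.56e-10).

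Of the 24 genes for mitochondrial DNA expression and maintenance, 12 were lower and 5 higher with age (median -0.39). Over all tested genes 44.4% were lower and 37.6% higher. With offsets 11 of the 24 were lower and 4 higher (median -0.23), against 39.2% lower and 39.6% higher over all tested genes. Slirp had the largest fall, -4.41 (edgeR adjusted p 6.15e-07, and -3.79 with offsets), to 1.11 CPM. Of 30 biogenesis transcription regulators, 11 were higher and 10 lower (median 0.15). The nuclear receptors Rxra (2.51, edgeR adjusted p 8.68e-09, and 1.55 with offsets) and Ppard (2.40, edgeR adjusted p 1.41e-08, and 1.93 with offsets) rose. The largest fall was that of Perm1 (-2.51, edgeR adjusted p 1.06e-06, and -3.08 with offsets). Creb1, a transcription factor that activates Ppargc1a, fell too (-1.73, edgeR adjusted p 7.48e-08, and -0.79 with offsets). Of the 13 mitochondrially encoded mRNAs, 7 were higher and 4 lower (median 0.62), and with offsets all 13 were higher (median 2.77). The 4 that were lower turned with the offsets, such as mt-Atp6 from -1.92 to 1.34. Over all tested genes the median change with age was -3.93 for transcripts under 500 bases and -2.11 under 38% GC. The offsets remove such trends, so these values depend on the adjustment.

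**Figure D5:**
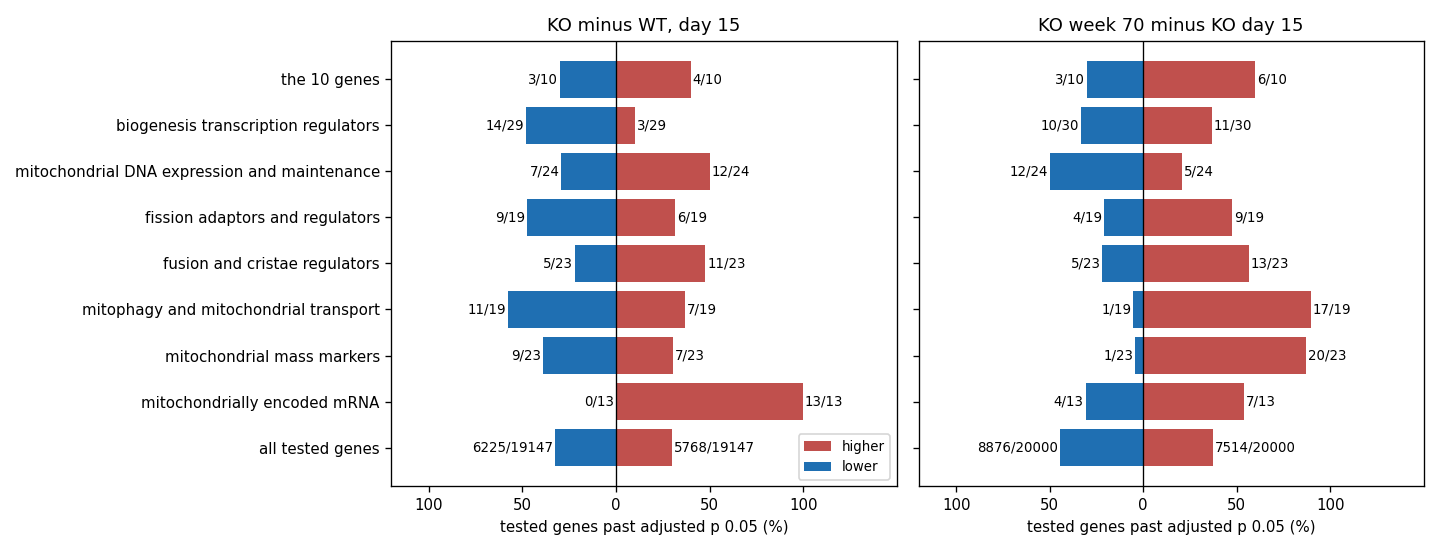
Share of tested genes in each list that passed edgeR's test (x axis, percent), higher to the right and lower to the left, for the 2 comparisons, with counts beside the bars. The 10 genes read 4 higher and 3 lower at day 15 and 6 higher and 3 lower with age.

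In whole-brain RNA, fewer cells of a type and less RNA per cell cannot be told apart, and markers of cell types moved with both comparisons. The summed level of 8 neuronal markers was 3875 to 4352 CPM in WT, 2977 to 3066 in fetal KO and 13161 to 14413 in aged KO brain, with aged KO highest and fetal KO lowest. The astrocyte, oligodendrocyte, microglial and endothelial sums had the same order, as had Mfn2, Opa1 and Esrra. At day 15, 5 of the 8 neuronal markers were lower and 2 higher, where 32.5% of all tested genes were lower and 30.1% higher. With age 6 of the 8 were higher and 2 lower, where 37.6% of all tested genes were higher and 44.4% lower. The members of other lists were split at day 15 too. Of 6 tested astrocyte markers 4 were lower and 1 higher, and of 6 tested oligodendrocyte markers 3 were lower and 2 higher. Of 7 tested microglial markers 3 were lower and 1 higher. Lists this short were not tested against the shares over all tested genes. The sum of 8 progenitor and dividing-cell markers was 1465 to 1682 CPM in WT, 646 to 662 in fetal KO and 205 to 217 in aged KO brain. This is the order of Nrf1, and all 8 were lower at day 15. With age 7 of these 8 were lower and 1 higher. Astrocyte (6 genes) and oligodendrocyte (7 genes) sums reached 6397 to 6695 and 12752 to 13065 CPM at week 70, from at most 516 and 138 CPM in any fetal library. Endothelial markers (6 genes) summed to 175 to 239, 49.8 to 65.0 and 289.8 to 312 CPM, and all 6 were lower in fetal KO brain. Erythroid markers (8 genes) were at 1063 to 1346, 3552.5 to 4394 and 479 to 772 CPM, with Hbb-y and Hba-x at 3 counts or fewer in every week 70 library. Of these 8, 6 were higher and 2 lower at day 15. Fibroblast and meningeal markers (6 genes) ran from 313 to 4524 CPM in WT and from 66.8 to 140.1 in fetal KO brain. Microglial markers (7 genes) summed to 43.8 to 71.3, 28.5 to 32.0 and 404 to 508 CPM. The part of these markers in the results on the 10 genes was not tested.

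The genes whose levels over the 8 libraries were most like 4 of the 10 were sought among 12813 named genes with a mean of 50 counts or more by Pearson's r of log2 CPM (prior count 2), which mainly follows the differences between the 3 groups. Tmem132b was most like Mfn2 (r = 0.9995), Pi4ka most like Opa1 (r = 0.999), Map3k1 most like Nrf1 (r = 0.998) and Dpy30 most like Tfam (r = 0.994). Of the candidates, 11% had an r over 0.95 with Mfn2 and 0.531% with Tfam. Mfn1 had none over 0.95, its closest being Zfp39 (r = 0.934).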

How the data were processed

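The deposited table holds raw read counts per gene for 8 libraries, which the authors made with FastQC, cutadapt, Trimmomatic, HISAT2 and featureCounts, per the submitters' processing notes. The notes also name edgeR and both GRCm38 and GRCm39; which of them served for counting, the strand setting and the treatment of reads with several matches are not given in the sources used here. The test was edgeR 4.0.16 under R 4.3.3 (filterByExpr, TMM scaling, quasi-likelihood F-test, Benjamini-Hochberg over all genes tested) on the libraries of each comparison only, after the code was tested on simulated data. The labels do not say that the week 70 libraries are separate animals. Their Xist and Y-linked counts show that the 2 libraries are not from the same animal. P-values measure only the spread between samples. RPKM used GENCODE M21 exon lengths, which 97.3% of genes matched. Length and GC offsets were smooths fitted with mgcv 1.9.3. The 351 genes without a name (0.0668% of counts) were kept. The alternatives were RLE and upper-quartile scaling, other filters, DESeq2 1.42.0, a fit of all libraries, a replicate block, length and GC offsets, omission of haemoglobin and mitochondrially encoded genes, and leaving out each library. Named are all 10 genes and, from each list, up to 2 largest rises and 2 largest falls among called genes that averaged 50 counts or more and whose CPM ranges were separate; not all of these are printed. The 10 genes and the lists were chosen with earlier results of these data known. Replicate libraries differed by more than counting noise (chi-square per gene 3.20 to 21.5).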

Additional observations from a re-analysis of the deposited data

How the results depend on the processing

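Over the alternatives, 291 log2 fold changes of the 10 genes kept their direction and side of the threshold, 7 lost the call, 8 gained one and 4 reversed. The number of the 10 genes past the threshold was 6 to 8 at day 15 and 8 to 10 for age over all alternatives. With no filter on low counts 5 of the 10 were lower at day 15, Ppargc1a (-0.29) and Esrra (-0.30) being added while Mfn1 was lost (0.15). Dnm1l changed direction with length and GC offsets (-0.10 at day 15, 0.61 for age) and with these offsets plus the replicate block (-0.10 and 0.61), where 1 of the 10 was lower with age, Tfam (-0.11) and Mfn1 (-0.20) having lost the call. The cause was not tested. Upper-quartile scaling moved the median of all genes from 0.03 to 0.20 at day 15 and from -0.19 to -0.44 for age, and the share of day 15 calls that were higher from 48.1% to 60.8%. In the fit of all 8 libraries Esrra passed at day 15 (-0.25) and Mfn1 was lost for age (-0.18). Leaving out 1 library gave 7 to 8 of the 10 at day 15, with 3 to 4 higher and 3 to 4 lower, and 10998 to 11365 genes in all, against 9 of the 10 and 15534 to 16923 genes for age, where without a week 70 library the lone sample left is assumed to vary like the fetal group. Deviations from the group mean had r of -0.14, -0.17 and -0.15 between same-numbered fetal libraries, and 0.06 to 0.09 between differently numbered ones. Deviations within a group cancel out, so these r values are tied to each other. They cannot settle whether the numbers pair the libraries. With the replicate block 7 and 9 of the 10 passed, and 11184 and 14876 genes in all. Depth limits Ppargc1b most, at 40 to 61 counts per fetal library.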

Other observations

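Some genes with annotated pseudogenes showed opposite counts at week 70. Apoo, a subunit of the cristae complex, went from 3.45 ± 0.598 CPM in fetal KO (n = 3) to 38.7 ± 0.869 in aged KO brain (n = 2), a rise of 3.39 (edgeR adjusted p 1.07e-08), while its 1 pseudogene went from 467, 539 and 510 counts to 47 and 34. Timm23, an inner-membrane import channel, rose by 3.51 (edgeR adjusted p 1.77e-09) while its pseudogene went from 48, 43 and 50 counts to 4 and 4. Cytochrome c, Cycs, rose by 3.37 (edgeR adjusted p 4.77e-09) while its 2 pseudogenes went from 25, 33 and 31 counts to 0 in both aged libraries. Pseudogene counts also fell where the gene did not rise. Ssbp1 changed by -1.34 while its pseudogene went from 249, 283 and 312 counts to 5 and 0. Marchf5 changed by 0.07 while its 2 pseudogenes went from 28, 17 and 33 counts to 1 and 0. Not every pseudogene fell, as that of mt-Nd2 went from 12, 12 and 13 counts to 22 and 13. Whether reads were assigned to gene and pseudogene in the same way at both ages was not tested. These genes were singled out after their values were seen.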
